A study of Mus musculus with 12 samples.

Results

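MYC and the genes that pair with it or oppose it were followed in mouse embryonic fibroblasts (MEFs) at an early stage of reprogramming. The 10 genes were the MYC family (Myc, Mycn and Mycl), the shared partner Max, the antagonists Mxd1, Mxd3, Mxd4, Mxi1 and Mnt, and the MAX-like factor Mlx. They were chosen by symbol as rows of the deposited count table, which lists 55573 genes, and all 10 passed the low-count filter that kept 19174 genes. Cells came from C57BL/6 embryos of mid-gestation, and all of them, controls included, carry a cassette of Oct4, Sox2, Klf4 and Myc (OSKM) that is switched on by doxycycline. Cells of 3 embryos, called clones 1 to 3 in the labels, were kept for 72 h in medium for induced pluripotent stem cells. The MEF group received no addition, the MEF+B12 group 2 µM vitamin B12, the OSKM group 1 µg/ml doxycycline and the OSKM+B12 group both, which gave 12 libraries with 3 in each group. Myc is thus a gene of the cells and a factor of the cassette at once, and a count for Myc does not separate these sources. No uninduced culture received doxycycline, and effects of the drug and of the factors cannot be told apart. Vitamin B12 is a cofactor of methionine synthesis, and the study asked what its addition changes in cells that are being reprogrammed.

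MYC is a transcription factor of the basic helix-loop-helix leucine zipper class that binds DNA only as a pair with MAX, preferring the hexamer CACGTG, known as an E-box. The MXD proteins, MXI1 and MNT take the same partner and the same sites, recruit SIN3 and histone deacetylases, and lower transcription there. MLX resembles MAX, pairs with some of these antagonists and links them to the glucose-responsive factors MLXIP and MLXIPL. In fibroblast reprogramming, MYC is the factor that speeds growth and raises ribosome and nucleotide synthesis, and it can be left out at the cost of efficiency.

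The E-box itself was found near the start of several of these genes. RefSeq promoter windows on GRCm38.p6, each running from 250 bases before to 50 bases after a start, were held for 9 of the 10 genes in 11 windows, Myc being the gene with no entry. Of all 32851 windows in that table, 7.15% held CACGTG, which reads the same on both strands. The related letters CATGTG, searched on both strands, were in 14.2% of windows, and in 1 window of these genes, an inner start of Mxi1. Max, Mxd4, Mnt and Mlx each held 1 E-box, and the 40 bases around it are shown 5′ to 3′ on the gene's strand, with the hexamer in capitals, because these are the letters that MYC, MAX and their antagonists read.
Max (chr12:76962229-76962268, - strand): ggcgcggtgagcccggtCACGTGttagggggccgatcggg
Mxd4 (chr5:34187907-34187946, - strand): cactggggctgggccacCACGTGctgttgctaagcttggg
Mnt (chr11:74830784-74830823, + strand): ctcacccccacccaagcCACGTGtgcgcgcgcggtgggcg
Mlx (chr11:101087233-101087272, + strand): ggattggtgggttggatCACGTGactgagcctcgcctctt
The Max hexamer began 3 bases before the RefSeq start and ran across it. The gene span of Max given below comes from another annotation, GENCODE, with a start at 76962201, and the hexamer lies outside that span. The hexamer began 40 bases before the RefSeq start in Mlx, 123 bases before it in Mnt and 219 bases before it in Mxd4. Mxi1, the antagonist whose count moved with Myc, had 3 windows and CACGTG in none of them. The 250 bases before its first start are given for comparison.
Mxi1 (chr19:53310256-53310505, + strand): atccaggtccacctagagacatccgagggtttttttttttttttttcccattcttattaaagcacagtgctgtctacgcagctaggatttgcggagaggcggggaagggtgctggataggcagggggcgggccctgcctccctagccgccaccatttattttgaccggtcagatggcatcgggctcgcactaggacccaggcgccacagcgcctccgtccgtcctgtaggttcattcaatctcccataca
These matches are letters in a window, and binding was not measured here.

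Library totals ran from 56971244 to 79236795 counted read pairs, and the members other than Mycn and Mycl had at least 307 counts in every library. CPM is the count scaled per 1e6 pairs of a library after TMM normalization. Values for comparing genes with each other are TPM, counts divided by the exon length of the gene and scaled to a common total. This length joins the exons of all annotated transcripts, 2717 bases for Myc, 3598 for Max and 8483 for Mxd4. The transcripts used in these cells and that of the cassette may have other lengths, so orders and ratios between genes are approximate. Fibroblast identity was checked with 11 markers, which were all detected and together made 85510 to 137000 CPM. The 11 macrophage markers were detected as well and summed to 1342 to 3417 CPM. The OSKM library of clone 1 stood apart in pseudogenes, whose spread around the clone mean was 0.414 in log2 CPM against at most 0.184 in the other libraries. Values without that library are given where a result rests on it.

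Ordered by level per length, Mxd4 and Max were the most abundant members in uninduced cells (the plot of levels per length). Mxd4, which encodes an antagonist found in cells leaving the cell cycle, had 61.4 ± 0.505 TPM (SD, n = 3) in MEF, and Max had 58.7 ± 2.88 TPM, with overlapping libraries. Mlx followed at 29.4 ± 1.21 TPM and Mnt at 25.7 ± 3.52 TPM. Myc stood in the fifth place at 20.1 ± 4.06 TPM and overlapped with Mnt. Mxd3 at 9.55 ± 1.62 TPM, Mxi1 at 5.78 ± 0.634 TPM and Mxd1 at 2.52 ± 0.303 TPM came next, each below every library of the gene before it. Mycn at 0.430 ± 0.216 TPM and Mycl at 0.374 ± 0.0871 TPM were far below the rest and overlapped with each other. Among the MYC family, Myc therefore made up 95.3 to 97.3% of the summed TPM in the 6 uninduced libraries.

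**Figure D1:**
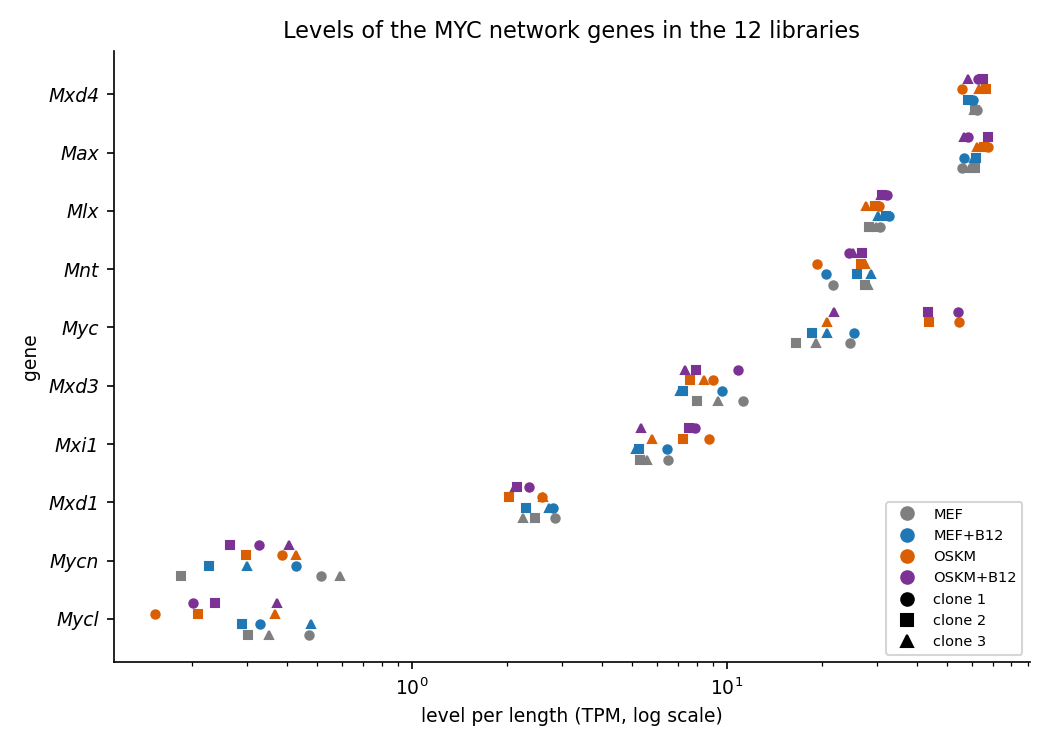
Level per length of the 10 genes (rows) in TPM on a log axis, with 1 point per library, colour for the group and shape for the clone. Myc separates into 4 libraries between 43.4 and 54.6 TPM and 8 between 16.6 and 25.3 TPM, and the other abundant members stay within narrow ranges.

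With induction the order changed at Myc. In OSKM, Max had 65.0 ± 2.68 TPM, Mxd4 61.8 ± 5.50 TPM, Myc 39.8 ± 17.3 TPM and Mlx 29.1 ± 1.45 TPM, and the libraries of Myc overlapped with those of Mlx because of clone 3. In OSKM+B12, Mxd4 had 61.96 ± 3.52 TPM, Max 60.7 ± 5.75 TPM, Myc 39.8 ± 16.4 TPM and Mlx 31.4 ± 0.779 TPM. The remaining members kept the MEF order in OSKM, and in OSKM Mxd3 and Mxi1 came to overlap at 8.37 ± 0.684 and 7.26 ± 1.49 TPM. In MEF+B12 only the neighbouring pairs that overlapped in MEF, Max with Mxd4 and Mycn with Mycl, exchanged places.

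Myc (ENSMUSG00000022346, chromosome 15, 61985391 to 61990374, GRCm38, forward strand) was more than doubled by induction in clones 1 and 2 and close to its uninduced level in clone 3. Without B12, Myc went from 22.5 CPM in MEF to 53.4 CPM in OSKM in clone 1, from 16.4 to 44.0 CPM in clone 2, and from 18.6 to 20.1 CPM in clone 3. With B12 it went from 23.3 to 50.4 CPM in clone 1, from 18.7 to 43.6 CPM in clone 2, and from 20.2 to 21.9 CPM in clone 3. The 4 induced libraries of clones 1 and 2 lay above all the others, while both induced libraries of clone 3 lay within the range of the uninduced ones. On the log2 scale the difference within a clone was 1.25, 1.42 and 0.11 without B12 and 1.11, 1.22 and 0.11 with B12 for clones 1, 2 and 3.

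Averaged over both B12 arms, the log2 fold change of Myc was 0.88 ± 0.17 (SE), a 1.84-fold difference with a 95% interval of 1.42 to 2.39 and an adjusted p of 0.0206. This p came from edgeR's quasi-likelihood test with Benjamini-Hochberg adjustment over all genes, in a fit of all 12 libraries with the clone as a term. All 6 differences between an induced and an uninduced library of the same clone were positive. Taken singly, Myc had an adjusted p of 0.159 without B12 (log2 fold change 0.94 ± 0.24) and 0.181 with B12 (0.82 ± 0.24). The averaged fit counts both B12 arms of an embryo as separate, and when their counts were summed so that an embryo counted once, an alternative chosen after the data were seen, the value for Myc was 0.88 ± 0.22 in log2, at an adjusted p of 0.214. Leaving out clone 3 gave 1.25 ± 0.05 and an adjusted p of 1.12e-05, leaving out clone 1 gave 0.72 ± 0.23 and 0.262, and leaving out clone 2 gave 0.66 ± 0.21 and 0.426. The titles give clone 1 a later year than clones 2 and 3, so the fit without clone 1 is also the value within the earlier year, and the later year holds 1 clone only.

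The difference between clones was tested in a fit that lets the induction response vary by clone. Each clone gave 1 induced library per B12 arm. The spread in this test therefore comes from the B12 arms of each embryo, and repeated inductions of a clone were not available. Myc was the member called there, with an adjusted p of 0.000653 and 1.21 between the largest and smallest log2 response, and 2.15% of all genes were called in the same test. Without clone 3 the largest difference was 0.14 with an adjusted p of 0.871. Sox2, another factor of the cassette, also differed by clone (adjusted p = 0.0156) and reached 2.33 and 2.18 CPM upon induction of clone 3, against 13.3 to 17.8 CPM for clones 1 and 2. The Sox2 call was lost without the MEF, the MEF+B12 or the OSKM+B12 library of clone 3. Oct4, whose gene is Pou5f1, reached 2.86 and 2.33 CPM in induced clone 3 against 18.5 to 20.7 CPM in induced clones 1 and 2. Pou5f1 was not called by clone (adjusted p = 0.352), and with 0 and 1 counts in the uninduced libraries of clone 3 against 12 to 27 in the other uninduced ones, no fold is given for that clone. Klf4, a further factor of the cassette, was at 108.3 to 143.3 CPM in all 12 libraries, and its averaged log2 fold change was -0.12 ± 0.03 (adjusted p = 0.0452), a call that was lost for Klf4 with an embryo counted once (adjusted p = 0.242) and without clone 1 (0.278), clone 2 (0.426) or clone 3 (0.0538). Whether the smaller Myc response of clone 3 goes with fewer responding cells or with less RNA in each cell cannot be told apart in bulk samples.

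**Figure D2:**
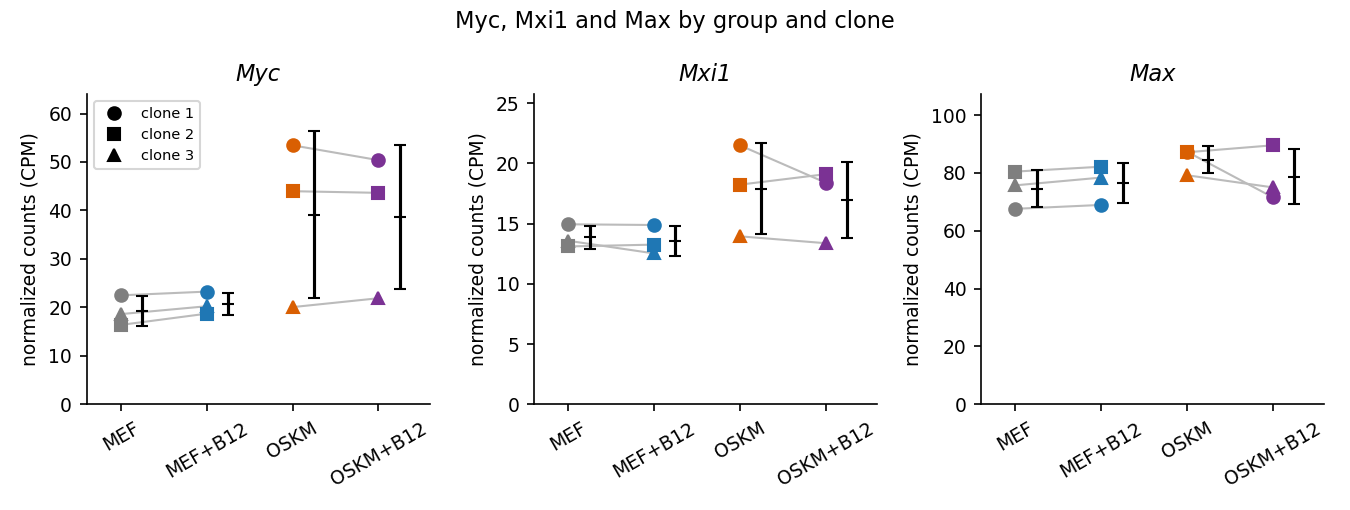
CPM of Myc, Mxi1 and Max by group, with 1 point per library (shape for the clone), grey lines joining libraries of the same clone without and with B12, and black bars for the mean ± SD of 3 libraries. In Myc and Mxi1 the induced libraries of clones 1 and 2 lie above all others and those of clone 3 do not, and the axes start at 0.

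Across all genes the induction average called 1865 of 19174 (9.73%), with 856 higher and 1009 lower, a split that turned to 1496 higher of 2128 when library totals were used without TMM factors. Of the 10 members, 2 passed the test in this average, Myc and Mxi1, and both were higher. Without B12, 0 of 10 members passed against 0.073% of all genes, and with B12 0 of 10 against 0.104%, with 3 members at an unadjusted p under 0.05 in each. Over all 19174 genes, 3641 without B12 and 2854 with B12 had an unadjusted p under 0.05. DESeq2 called 0 members in either, against 487 of all genes without B12 and 416 with B12.

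Mxi1 (ENSMUSG00000025025, chromosome 19, 53310518 to 53375810, forward strand), the antagonist that competes with MYC for MAX, was the other member that rose, and it rose in the clones in which Myc did. It had 14.9, 13.1 and 13.6 CPM in MEF and 21.5, 18.2 and 13.95 CPM in OSKM for clones 1, 2 and 3. With B12 it had 14.9, 13.3 and 12.5 CPM before and 18.4, 19.1 and 13.4 CPM after induction. As for Myc, the 4 induced libraries of clones 1 and 2 were above all other libraries. The averaged difference was 0.33 ± 0.07 in log2, a 1.26-fold difference with a 95% interval of 1.13 to 1.40 and an adjusted p of 0.0256 in the same edgeR fit, and 6 of 6 differences within a clone were positive. With an embryo counted once the adjusted p of Mxi1 was 0.214 at a log2 fold change of 0.33, and without the OSKM library of clone 1 it was 0.0513 at 0.29. Without clone 3, Mxi1 had 0.46 ± 0.06 (adjusted p = 0.00251). Leaving out clone 1 gave 0.29 ± 0.09 (adjusted p = 0.262), and leaving out clone 2 gave 0.25 ± 0.09 (adjusted p = 0.426). Its response by clone had an unadjusted p of 0.00855 and an adjusted p of 0.153.

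**Figure D3:**
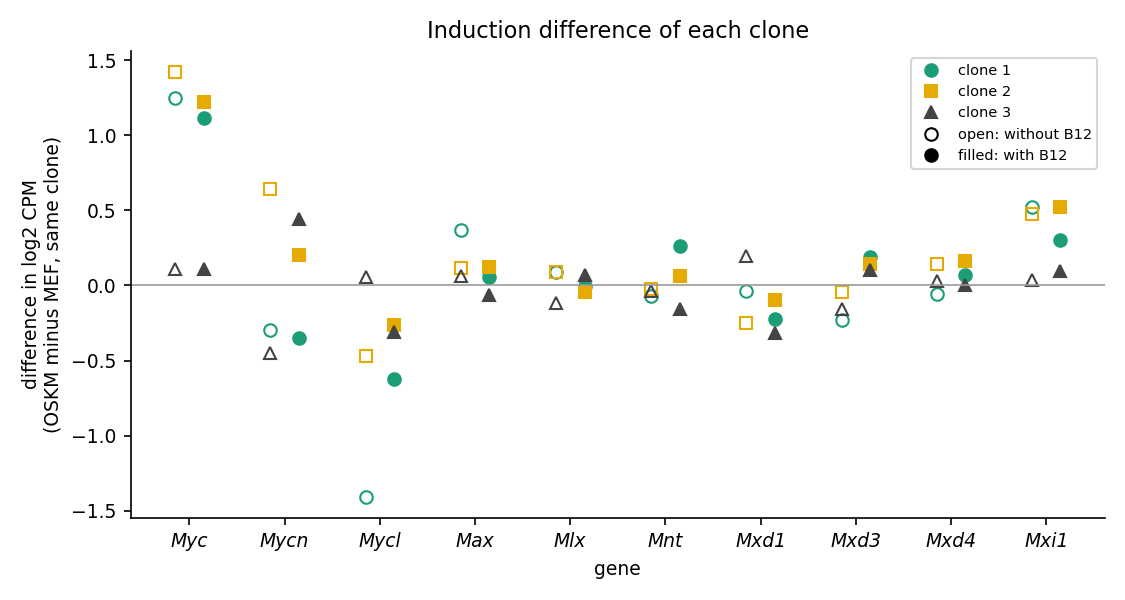
Difference in log2 CPM between the induced and the uninduced library of the same clone for the 10 genes, with open points without B12, filled points with B12, and shape and colour for the clone. The Myc differences of clones 1 and 2 lie between 1.11 and 1.42 and those of clone 3 at 0.11, while the points of Max, Mlx, Mnt and Mxd4 stay within 0.37 of 0.

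The binding partners changed little. Max (ENSMUSG00000059436, chromosome 12, 76937269 to 76962201, reverse strand), the obligate partner of MYC, had 67.6, 80.4 and 75.7 CPM in MEF and 87.3, 87.1 and 79.2 CPM in OSKM for clones 1 to 3. With B12, Max was at 68.9, 82.1 and 78.4 CPM and, after induction, at 71.5, 89.5 and 75.0 CPM. The OSKM library of clone 1 was high and the groups overlapped. The averaged log2 fold change was 0.11 ± 0.05 (adjusted p = 0.155), a fold of 1.08 with a 95% interval of 1.01 to 1.16, which is smaller than the Myc interval throughout. Mlx (ENSMUSG00000017801, chromosome 11, 101087277 to 101092207, forward strand) stayed between 19.5 and 23.7 CPM in all libraries, with an averaged fold of 1.01 and an interval of 0.951 to 1.07.

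With Max between 67.6 and 89.5 CPM in all libraries, the amount of Myc relative to Max followed Myc. Myc was 27.0 to 44.7% of Max by TPM in the 6 uninduced libraries. It was 81.0% and 93.2% of Max in the induced libraries of clone 1, 66.8% and 64.5% in those of clone 2, and 33.5% and 38.6% in those of clone 3, without and with B12. The induced libraries of clones 1 and 2 were above, and those of clone 3 within, the uninduced range. Against the summed TPM of the 5 antagonists, Myc was 15.9 to 25.3% in uninduced libraries, 57.3% and 50.1% in induced clone 1, 39.8% and 39.6% in induced clone 2, and 19.4% and 22.3% in induced clone 3. The antagonist sum itself stayed between 95.4 and 110.1 TPM in the 12 libraries, and Mxd4 made up 57.5 to 60.5% of it.

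Among the other antagonists no member passed the test in the averaged comparison. Mxd4 (ENSMUSG00000037235, chromosome 5, 34173883 to 34187720, reverse strand) ranged from 170.2 to 208.8 CPM, and its averaged fold was 1.04 with an interval of 0.985 to 1.10. Mnt (ENSMUSG00000000282, chromosome 11, 74830920 to 74845725, forward strand), the antagonist found in most tissues and in cycling cells, had an averaged fold of 1.01 and an interval of 0.933 to 1.08. Mnt varied by clone: clone 1 had 32.1 to 38.6 CPM in its 4 libraries, and clones 2 and 3 had 42.7 to 47.5 CPM. Mxd1 (ENSMUSG00000001156, chromosome 6, 86647042 to 86669161, reverse strand), which is linked to terminal differentiation, stayed between 5.31 and 6.88 CPM with an averaged fold of 0.919 (interval 0.829 to 1.02). Mxd3 (ENSMUSG00000021485, chromosome 13, 55325168 to 55329823, reverse strand), the antagonist associated with proliferating cells, had an averaged fold of 1.00 (interval 0.912 to 1.10). All 4 intervals lie below the lower limit for Myc, 1.42.

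The averaged value of Mxd3 joined opposite signs. Without B12 its induction differences were -0.23, -0.05 and -0.16 in log2 CPM for clones 1 to 3, and with B12 they were 0.19, 0.15 and 0.10. All 3 clones were lower in the first arm and all 3 were higher in the second. The interaction was 0.29 ± 0.12 with an unadjusted p of 0.0348 and an adjusted p of 1.00, so it did not pass the correction over all genes. Values moved between 5.99 and 8.99 CPM, that is 367 to 599 counts.

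The low members of the MYC family gave few counts. Mycl (ENSMUSG00000028654, chromosome 4, 122995652 to 123002485, forward strand), which can stand in for MYC in reprogramming, had 37, 28 and 32 counts in MEF and 15, 18 and 41 in OSKM for clones 1 to 3. With B12 it had 31, 25 and 47 counts before and 19, 22 and 36 after induction. The 4 induced libraries of clones 1 and 2 were the lowest, and clone 3 overlapped with the uninduced libraries. The averaged value was -0.52 ± 0.21 in log2 (adjusted p = 0.138), and the interval of the fold was 0.510 to 0.959. Leaving out the MEF library of clone 3 alone brought the Mycl value to -0.68 with an adjusted p of 0.0499. Mycn (ENSMUSG00000037169, chromosome 12, 12936093 to 12941914, reverse strand), the family member of neural and embryonic cells, had 14 to 44 counts in the 12 libraries and an averaged fold of 0.990 with an interval of 0.723 to 1.35. A change of Mycn within that interval was not detectable at this depth.

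**Figure D4:**
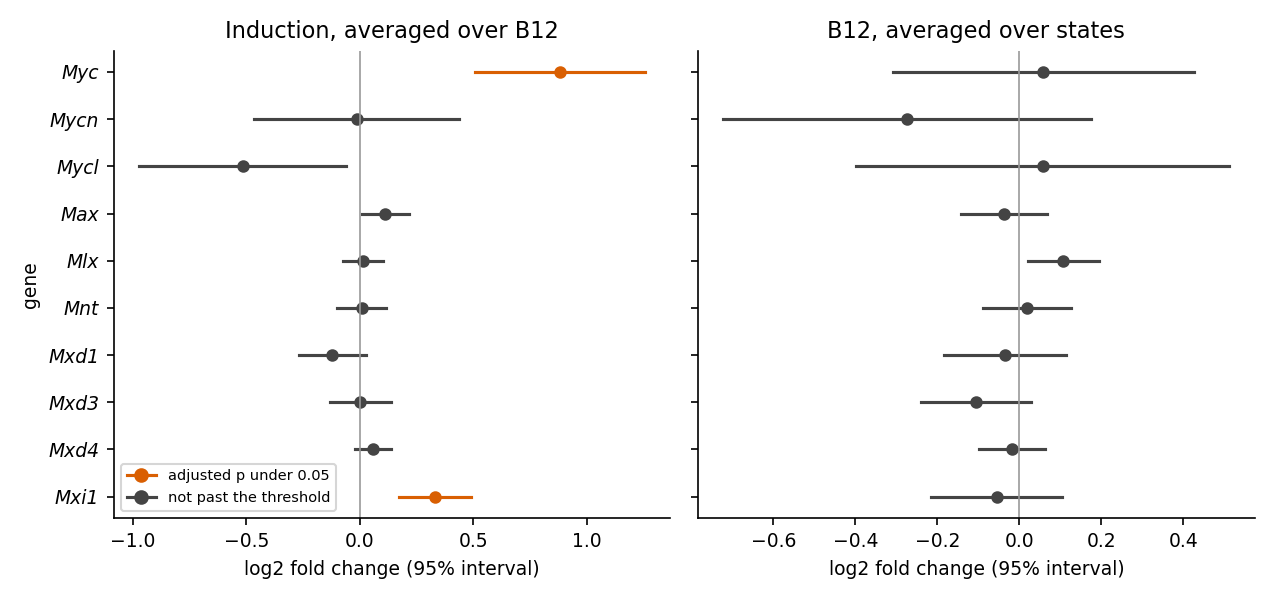
Log2 fold change of the 10 genes with 95% intervals, for induction averaged over both B12 arms (left, induced minus uninduced) and for B12 averaged over both states (right, with minus without), with genes past an adjusted p of 0.05 in orange. Myc at 0.88 and Mxi1 at 0.33 passed for induction, and 0 of 10 genes passed for B12.

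Vitamin B12 left all 10 members below the threshold. In OSKM cells 0 of 10 members passed against 1.06% of all genes, in MEF 0 of 10 against 1.38%, and averaged over both states 0 of 10 against 3.84%, with 0, 1 and 1 members at an unadjusted p under 0.05. Over all 19174 genes, 1883, 1972 and 2964 had an unadjusted p under 0.05, in the same order. DESeq2 called 0 members in each, against 388, 469 and 934 of all genes. For Myc the difference between B12 and no B12 in OSKM cells was -0.08, -0.01 and 0.13 in log2 CPM for clones 1, 2 and 3. The fitted fold of Myc was 0.998 with a 95% interval of 0.701 to 1.42 in OSKM, 1.09 (0.752 to 1.57) in MEF and 1.04 (0.807 to 1.34) averaged over both. Leaving out 1 clone at a time gave averaged B12 values of Myc from 0.043 to 0.103 in log2, with 0.05 ± 0.05 in the fit without clone 3. Mycn and Mycl, at their low counts, had averaged folds of 0.828 (0.606 to 1.13) and 1.04 (0.759 to 1.43).

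Mlx showed the most regular B12 difference. It was higher with B12 in 6 of 6 pairs of libraries of the same clone and state, by 0.11, 0.21 and 0.03 in log2 CPM in MEF and by 0.01, 0.08 and 0.22 in OSKM for clones 1 to 3. The averaged value of Mlx was 0.11 ± 0.04, with an unadjusted p of 0.0189 and an adjusted p of 0.200, a fold of 1.08 with an interval of 1.02 to 1.14. Mxd3 was lower with B12 in 3 of 3 clones in MEF (-0.22, -0.13 and -0.40), with a fitted value of -0.25 ± 0.09 and an adjusted p of 0.281, and in OSKM it was 0.04 ± 0.09. For Max, Mxd1, Mxd4, Mxi1 and Mnt the averaged B12 folds lay between 0.963 and 1.01. The macrophage markers moved with B12, since 11 of 11 rose in the averaged comparison, by a median of 0.57 in log2. Also, 11 passed with an embryo counted once, 8 without clone 3 and 1 without clone 2. Those fits called 916, 317 and 34 of all genes, in the same order. The part of the macrophage markers in the differences of Mlx and Mxd3 was not tested.

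The interaction of B12 and induction called 0 members and 0% of all genes in edgeR, with 1 member and 273 genes at an unadjusted p under 0.05, and DESeq2 called 0 genes. The interaction of Myc was -0.12 ± 0.33 with a fold interval of 0.552 to 1.53.

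Genes with a known link to MYC were then counted from lists. Of 27 genes commonly described as activated by MYC, 4 rose and 3 fell with induction averaged over B12. The 27 had a median of 0.04 in log2, with 21 above 0 and 6 below, against a median of -0.003 over all 19174 genes tested. Of those 19174 genes, 856 were called higher and 1009 lower, and 9409 lay above 0. Those that rose were Npm1, a nucleolar chaperone, by 0.18 ± 0.04 (adjusted p = 0.0289), and, named here after their values were seen, the snoRNP proteins Nop56 (0.18 ± 0.05) and Nop58 (0.16 ± 0.04) and Pa2g4 (0.12 ± 0.03), a regulator of growth and ribosomal RNA processing. Npm1 was higher by 0.35, 0.22 and 0.06 in clones 1, 2 and 3 without B12 and by 0.24, 0.16 and 0.06 with B12. Those that fell were Tfrc, the transferrin receptor (-0.37 ± 0.06, adjusted p = 0.0172), Slc16a1, a lactate transporter (-0.29 ± 0.08, adjusted p = 0.0375), and Ccnd2, a cyclin of the G1 phase (-0.23 ± 0.04, adjusted p = 0.0172). Tfrc was lower in 6 of 6 differences within a clone, by 0.48, 0.41 and 0.13 without B12.

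Of 6 genes described as repressed by MYC, 2 fell and 0 rose, with a median of -0.10, against 1009 of all 19174 genes called lower. Gadd45a, a stress-induced inhibitor of growth, fell by 0.22 ± 0.05 on the log2 scale (adjusted p = 0.0295), and Cdkn2b, an inhibitor of CDK4 and CDK6, fell by 0.15 ± 0.04 (adjusted p = 0.0335). With library totals and no TMM factors, 8 activated genes rose, 3 fell and 0 repressed genes fell. With an embryo counted once, 0 genes of either list passed, and the same held without clone 1 and without clone 2. Few genes passed at all in these fits, 13, 10 and 3 in the same order. Leaving out any 1 of the 8 libraries of clones 1 and 2 left 0 activated genes higher, 0 to 2 lower, and 0 repressed genes lower. Such fits called 49 to 771 of all genes. The largest difference of either list in the fit of all libraries, that of Tfrc at -0.37, compares with 0.88 for Myc.

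**Figure D5:**
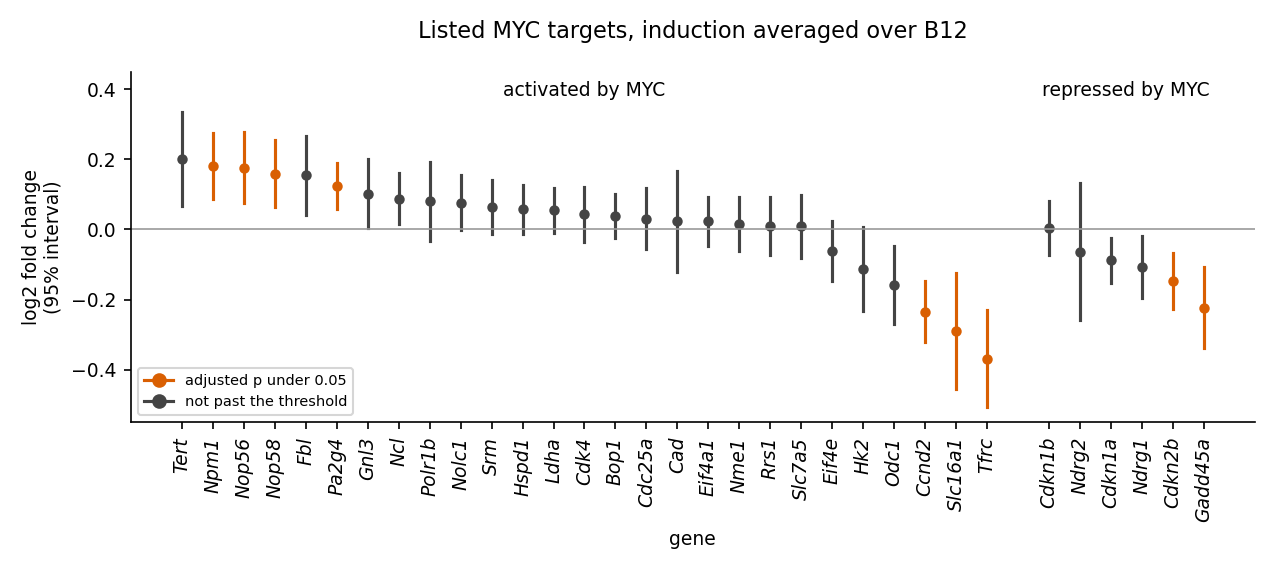
Log2 fold change with 95% interval, for induction averaged over B12, of 27 genes described as activated by MYC and 6 described as repressed by it, sorted by value, with genes past an adjusted p of 0.05 in orange. In the activated list 4 orange genes lie above 0 and 3 below, and in the repressed list both orange genes lie below 0.

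The proteins that work with the network gave no calls with induction. Of 11 MYC cofactors 0 passed in the induction average (median 0.01), and the smallest p belonged to Ruvbl2, an ATPase of chromatin remodellers, at 0.11 ± 0.04 (adjusted p = 0.0854), while 2 cofactors rose in the fit without clone 3. Of 8 corepressors that MXD proteins and MNT recruit 0 passed (median 0.05), with Sin3b at -0.07 ± 0.03 (adjusted p = 0.184). Of 7 genes of MYC protein turnover 0 passed (median -0.02), with Skp2, a ubiquitin ligase subunit, at 0.12 ± 0.05 (adjusted p = 0.123). Mga and Mlxip, the 2 of 3 further network factors that passed the filter, were at -0.06 ± 0.07 and -0.06 ± 0.03, and Txnip and Arrdc4, targets of the MLX partners, were at -0.05 ± 0.05 and -0.09 ± 0.07. In these lists 1 corepressor, 3 cofactors, 1 turnover gene, 0 further factors and 0 targets had an unadjusted p under 0.05. Over all 19174 genes tested, 5144 had such a p in this comparison.

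Proliferation genes gave 0 calls of 12 with induction (median 0.04), with 1 at an unadjusted p under 0.05 (5144 of all 19174 genes), Mcm2 at 0.09 ± 0.03 (adjusted p = 0.122). Their summed level was 574 to 716 CPM in MEF and 559 to 778 CPM in OSKM. Cell type markers also had calls with induction in the fit of all libraries: 4 of 11 fibroblast markers fell, among them Col1a1 (-0.35 ± 0.08), 2 of 3 tested epithelial markers rose, Krt8 (2.58 ± 0.42) and Cdh1 (1.95 ± 0.33), and 2 of 3 tested endothelial markers rose, Tek (1.27 ± 0.21) and Cdh5 (1.22 ± 0.24). The 11 fibroblast markers had a median of -0.005 in log2, with 5 above 0 and 6 below. The other tested epithelial and endothelial markers, Krt18 (0.14) and Kdr (0.01), did not pass, and Epcam, Pecam1 and Emcn were below the filter. Over all genes, 856 were called higher and 1009 lower. Cdh1 was low, at a mean of 0.14 CPM in MEF and 0.46 CPM in OSKM. The summed epithelial markers ran from 0.710 to 1.13 CPM in MEF and from 0.757 to 4.34 CPM in OSKM, and the endothelial ones from 41.8 to 46.5 and from 52.9 to 145.0 CPM. The endothelial sum was mostly Tek, at a mean of 38.75 CPM in MEF and 101.1 CPM in OSKM. Of 11 macrophage markers, 2 fell. With an embryo counted once, without clone 1 and without clone 2, 0 markers of these 4 lists passed, against 13, 10 and 3 of all genes. Leaving out any 1 library of clones 1 and 2 also left 0 calls in the 4 lists, except without the OSKM library of clone 1 (1 fibroblast, 2 epithelial and 2 endothelial markers) and the MEF+B12 library of clone 1 (1 epithelial marker). Such fits called 49 to 771 of all genes. The part of these markers in the Myc and Mxi1 differences was not tested.

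With B12, averaged over states, 2 of the 27 activated genes rose and 0 fell, with a median of 0.04 against -0.01 for all genes. Of all 19174 genes, 663 were called higher and 73 lower. Tfrc rose by 1.12 ± 0.06 on the log2 scale (adjusted p = 2.6e-05), and Bop1, a factor of ribosome assembly, by 0.15 ± 0.03 (adjusted p = 0.0119). Of the 6 repressed genes 0 passed, with 5 at an unadjusted p under 0.05 and Cdkn2b at -0.14 ± 0.04 (adjusted p = 0.0543). An unadjusted p under 0.05 was reached by 2964 of all 19174 genes in this comparison. Of the proliferation genes Mcm5 (0.24 ± 0.03) and Pcna (0.17 ± 0.03), both of DNA replication, rose. These 4 rises passed with an embryo counted once, and without clone 2 Tfrc (adjusted p = 0.0156) passed while Bop1 (0.330), Mcm5 (0.0724) and Pcna (0.298) did not. Without clone 3, Bop1 (0.146) and Pcna (0.126) did not pass. The cofactors, the corepressors, the turnover genes, the further factors and the MLX partner targets had 0 calls, with 1, 1, 1, 0 and 0 at an unadjusted p under 0.05. Tfrc rose with B12, and Myc had no called B12 difference, with a 95% interval of its averaged fold of 0.807 to 1.34. A link between them was not tested.

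The genes whose levels followed Myc most closely were looked up among 11624 named genes with a mean of at least 1 in log2 CPM. Over the 12 libraries the highest Pearson correlations with Myc belonged to Umps, an enzyme of pyrimidine synthesis (0.982), Rcor2, a corepressor (0.978), Cth, the cystathionine gamma-lyase of cysteine synthesis (0.978), Thop1, a peptidase (0.977), and Mlf1 (0.976). In all 5 the 4 induced libraries of clones 1 and 2 were apart from the other 8, as in Rcor2, at 11.6 to 14.1 CPM against 6.04 to 8.47 CPM, and Cth, at 4.26 to 5.29 against 1.83 to 2.60 CPM. The libraries thus fell into separate sets, and within the 8 other libraries the correlations with Myc were 0.589 for Umps, 0.808 for Rcor2, 0.806 for Cth, 0.746 for Thop1 and 0.627 for Mlf1. Among the members, Mxi1 had 0.962 over the 12 libraries and 0.629 over the 8, and Mycl had -0.832 and 0.406. Over the 8, values larger in size than that of Mxi1 belonged to Mxd4 (-0.812), Max (-0.787) and Mnt (-0.753). The libraries share clones, and these values are a description without a test.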

How the data were processed

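RNA was measured in 12 libraries of MEFs, 3 clones in each of 4 groups, as described above. The authors prepared strand-specific poly(A) libraries, aligned the reads with STAR 2.5.2 to GRCm38 (the labels' processing notes) and counted read pairs per gene. They deposited raw counts, with the flow cells of a library added together, and how reads with several matches were treated is not given in the sources used here. The labels give doxycycline in µg/ml, while the study's methods print mg/ml for cultured cells. Of 55573 identifiers, 55480 matched GENCODE M21 on GRCm38, which gave symbols, positions and exon lengths, and at most 1.16% of the 31-base words of any member occurred in other genes. Members and lists were chosen with earlier results of these data known.

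The counts were tested in R 4.3.3 with edgeR 4.0.16 (filterByExpr, TMM, quasi-likelihood F test, Benjamini-Hochberg adjusted p under 0.05 over 19174 genes), with group and clone as terms in all 12 libraries. A second fit let induction vary by clone (F test of both clone terms). CPM values are scaled by TMM, and log2 CPM used a prior count of 2. Standard errors are the log2 fold change divided by the square root of F, and 95% intervals use the t distribution of the fit. The clone is the embryo, so that the number pairs the libraries: deviations from the group means correlated by 0.27 to 0.687 over the 18 pairs of libraries of the same clone, and by at most 0.17 between clones. No 2 libraries were identical, and libraries of a group differed by at least 27.2 times the counting variance. All 10 members were named. Of other lists at most 4 genes passing with the largest change were named per comparison, or where none passed at most 2 with the smallest p. Alternatives were DESeq2 1.42.0, its size factors, library totals, other filters, no replicate block, only the libraries compared, each clone and each library left out, and summed libraries of an embryo, the last added after the data were seen. The fits were also run on simulated counts. The changed genes there responded alike in every clone, so an induction response that differs by clone was not simulated. Counting precision does not cover amplification error, as reads carry no molecular identifiers.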

Additional observations from a re-analysis of the deposited data

Results flagged for a closer look

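The response to induction differed between clones for Myc, with an adjusted p of 0.000653 in the test of that difference. That test takes its spread from the B12 arms of each embryo, not from repeated inductions of a clone. In clone 3 it rose from 18.6 to 20.1 CPM without B12 and from 20.2 to 21.9 CPM with B12, against 22.5 to 53.4 and 23.3 to 50.4 CPM in clone 1 and 16.4 to 44.0 and 18.7 to 43.6 CPM in clone 2. Sox2, another factor of the cassette, differed between clones as well, with an adjusted p of 0.0156.

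For Mxd3 all 3 clones were lower with induction without B12 and all 3 higher with induction in B12, a log2 interaction of 0.293 ± 0.121. The test of this difference gave an adjusted p of 1.00.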

How the results depend on the processing

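The count of members passing in the induction average was 2 and went to 0 with no replicate block, where Myc had a log2 fold change of 0.96 (adjusted p = 0.187) and Mxi1 0.35 (adjusted p = 0.257), and to 0 with the summed libraries of an embryo. Leaving out a clone or a library gave 0 to 3 there. Single libraries decided the calls: Myc passed in 5 of 12 fits without 1 library (log2 fold change 0.79 to 1.03, adjusted p 0.00529 to 0.0786) and Mxi1 in 4 of 12 (0.28 to 0.39, adjusted p 0.00892 to 0.0862). The calls over all genes moved in the same fits. They numbered 2068 to 3042 without 1 library of clone 3 and 49 to 771 without 1 library of clone 1 or 2. Without a low-count filter, 2 members passed for induction without B12 and 1 with B12, Myc in both. Leaving out a clone or library gave 0 to 2 members for induction without B12, 0 to 2 with B12, and 0 to 3 for the response by clone, where Max (adjusted p = 0.0270) and Mxi1 (0.0142) joined Myc without the OSKM+B12 library of clone 1. The count of 0 members for B12 in OSKM, B12 in MEF, B12 averaged and the interaction held under every alternative run. The replicate block changed no other call of a member. Of 1730 refitted member values, 1556 kept direction and side, 24 lost and 12 gained a call, and 138 that had no call changed sign; the cause was not tested. The number of all genes called in the induction average went from 1865 to 13 with summed libraries, 10 without clone 1, 3 without clone 2 and 0 with no replicate block, and to 3056 without clone 3. For induction without B12 it was 14 in edgeR, 487 in DESeq2, 681 with no filter and 2 with at least 10 counts in every library. Counts of 14 to 47 limit what Mycn and Mycl can show.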
